A study of Mus musculus with 2 samples.

Results

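Splicing regulators are the RNA-binding proteins that decide which exons of a precursor mRNA are joined. The genes described here are the 91, of 18032 in the deposited gene table, whose symbols begin with Srsf, Hnrnp, Rbm and a digit, Celf, Mbnl, Rbfox, Khdrbs, Ptbp, Tra2, or are Nova1 or Nova2. Membership was set by symbol alone, while the genes named below were chosen with earlier results of these data known. They comprise 37 Rbm genes, 21 Hnrnp genes, 11 Srsf genes, 6 Celf genes, 3 genes each of the Ptbp, Mbnl, Rbfox and Khdrbs families, and 2 genes each of the Nova and Tra2 families. A symbol rule of this kind is broad: it takes in 1 pseudogene, Hnrnpa1l2-ps2, and Rbm genes whose main roles lie in ribosome assembly, RNA decay or RNA methylation.

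SR proteins (Srsf and the related Tra2 proteins) bind enhancer sequences in exons and recruit the spliceosome through domains rich in arginine and serine. Heterogeneous nuclear ribonucleoproteins (hnRNPs) coat nascent transcripts and often act against them by masking sites. Smaller families such as Ptbp, Celf, Mbnl, Rbfox, Khdrbs and Nova bind short motifs next to exons, and the choice among their paralogues is a known mark of cell identity. Ptbp1 dominates in dividing cells and Ptbp2 in developing neurons, and Mbnl proteins are known to repress exons typical of embryonic stem cells.

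The 2 libraries of polyadenylated RNA came from wild-type mouse cells. The mESC library was made from ES-E14TG2a embryonic stem cells held in the naive ground state in 2iLIF: serum-free N2B27 with 100 units/ml of LIF, 1 µM of the ERK-pathway inhibitor PD0325901 and 3 µM of the GSK3 inhibitor CHIR99021. The cEpiSC library was made from epiblast stem cells derived in vitro from 2iLIF cultures, which spent 24 h on fibronectin in 2iLIF and then 2 days in N2B27 with activin A at 20 ng/ml and FGF2 at 12 ng/ml. The cEpiSC library therefore shows cells early after conversion, without the inhibitors or LIF. The effects of medium and of state cannot be told apart. Each state was sequenced once. Differences therefore lack a replicate check, no p-values are reported, and a gene is called higher or lower by size, at 2-fold or more.

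The libraries held 19843719 (mESC) and 19956733 (cEpiSC) counts, of which the splicing regulators took 1.74% and 1.63%. Of the markers of the naive state 9 of 9 were lower in cEpiSC, 7 of them by 2-fold or more, and of the primed or formative markers 7 of 7 were at least 2-fold higher. Levels compared between libraries are CPM, that is, counts scaled to the size of the library, after TMM scaling, and levels compared between genes are deposited TPM, which are per length. In CPM the naive markers summed to 4473 (mESC) and 1648 (cEpiSC), and the primed or formative markers to 115 and 1105. The naive markers were thus lower but still present in cEpiSC, at levels from 20.5 CPM (Prdm14) to 642 CPM (Nanog). Nanog, Esrrb (375 CPM) and Zfp42 (281 CPM) made up most of the sum there. Tfcp2l1 was 11.4-fold and Tbx3 10.5-fold lower. Each log2 ratio is of cEpiSC over mESC and is followed by its exact 95% interval, which covers counting error only. Where a ratio is under 2-fold, higher and lower describe these libraries and are not calls.

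Most splicing regulators differed little between the states. Of the 91 genes, 83 reached 1 CPM in at least 1 library. Of these 83, 4 were at least 2-fold higher in cEpiSC (Celf4, Rbm20, Rbm44 and Hnrnph3), 4 at least 2-fold lower (Nova2, Rbm24, Ptbp3 and Rbm47) and 75 within 2-fold. Among all 13243 genes at that level, 13.6% were higher and 9.25% lower. The share within 2-fold was 90.4% for the splicing regulators and 77.2% for all tested genes, and the share within 1.5-fold was 75.9% and 60.4%. Their abundance bears on this reading. Among the 77 at 10 CPM or more, 3 were higher and 3 lower, against 6.81% and 7.96% of all genes at that level. Among the 43 at 100 CPM or more, none was higher and 1, Ptbp3, was lower, against 3.72% and 8.49%. Within that abundant class 83.7% of the splicing regulators and 72.5% of all genes lay within 1.5-fold.

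More of the ratios lay below 0 than above. The median log2 ratio of the 83 genes was -0.15, against -0.02 for all tested genes, and 55 of 83 (66.3%) lay below 0, against 51.2% of all tested genes. Counting intervals lay wholly below 0 for 40 genes and wholly above 0 for 24, and 19 included 0. Among all 13243 tested genes the numbers were 5181, 4853 and 3209. Abundant genes as a whole lay lower, so the gap is smaller at matched levels: at 10 CPM or more 67.5% of the splicing regulators and 56.2% of all genes lay below 0, with medians of -0.15 and -0.08. At 100 CPM or more the shares were 69.8% and 59.8%, and the medians -0.20 and -0.13. Intervals wholly below 0 were found there for 25 of 43 splicing regulators and 1510 of 2767 genes, which are similar shares. Scaling by library totals moved both medians alike, to -0.08 and 0.06, with 45 of the 83 (54.2%) and 46.2% of all tested genes below 0. Centring on length sets the median of all tested genes to 0 by construction. After it the median of the 83 genes was -0.06, with 49 of the 83 (59.0%) below 0. The plot of cumulative ratios shows both distributions.

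**Figure D1:**
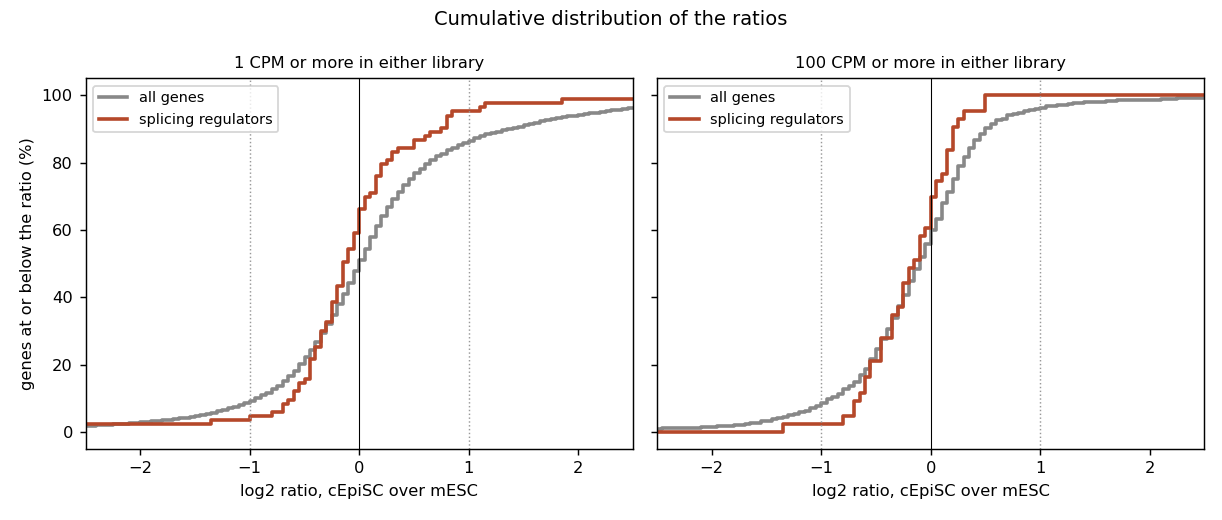
Cumulative percentage of genes at or below each log2 ratio of cEpiSC over mESC, for splicing regulators (brown) and all genes (grey), at 1 CPM or more (left) and at 100 CPM or more (right) in either library; dotted lines mark 2-fold. The brown curves rise more steeply between the dotted lines, where 90.4% of the tested splicing regulators and 77.2% of all tested genes lie.

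**Figure D2:**
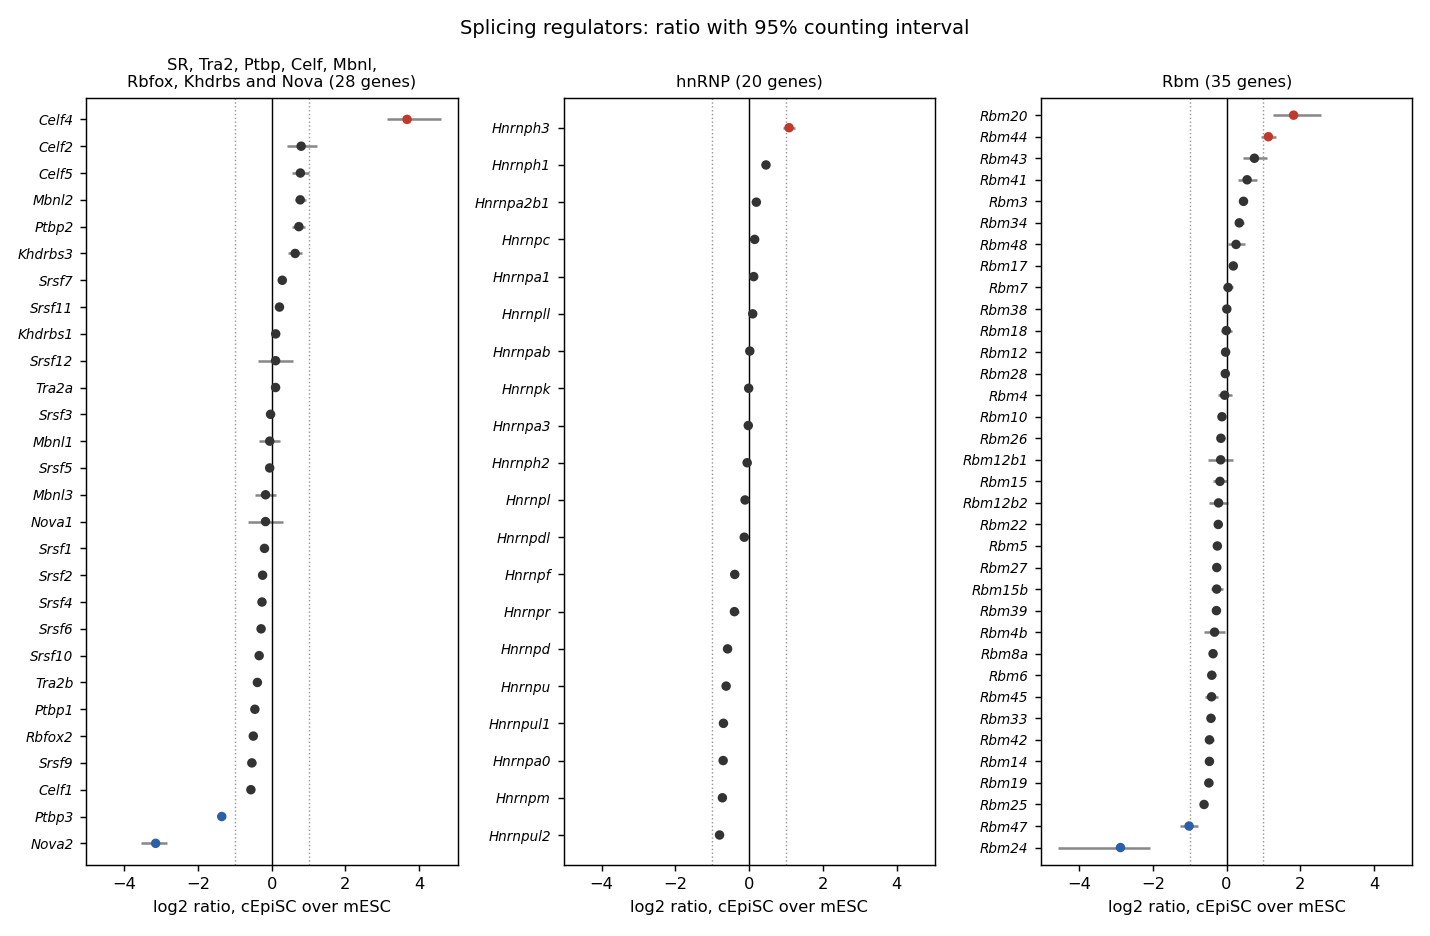
Log2 ratio of cEpiSC over mESC (horizontal axis) for each of the 83 tested splicing regulators, ordered by ratio within 3 panels; points are ratios, grey lines exact 95% counting intervals, dotted lines 2-fold. Red points (4) are at least 2-fold higher and blue points (4) at least 2-fold lower; Nova2 and Rbm24 stand far to the left and Celf4 far to the right.

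None of the 11 SR protein genes was 2-fold apart. Among all genes at 10 CPM or more 6.81% were higher and 7.96% lower, so none of 11 lies near those shares. The ratios ran from -0.54 to 0.29, with a median of -0.20. Srsf2, which encodes the enhancer-binding protein also called SC35, was the most abundant per length at 395 TPM in mESC and 324 TPM in cEpiSC, followed by Srsf5 (284 and 262 TPM), Srsf3 (212 and 201 TPM) and Srsf7 (174 and 207 TPM). The lowest ratio belonged to Srsf9, with 66.7 and 45.9 CPM in the mESC and cEpiSC libraries (-0.54 [-0.66 to -0.42]). Srsf10, which acts as a repressor of splicing when dephosphorylated, stood at 152 and 120.0 CPM (-0.34 [-0.42 to -0.26]). Srsf7 had the highest ratio, at 218 and 267 CPM (0.29 [0.23 to 0.35]), and Srsf11 was likewise above 0 (210 and 243 CPM, 0.21 [0.15 to 0.27]). The founding member Srsf1 lay between them at 378 and 330 CPM (-0.20 [-0.24 to -0.15]). Srsf12 was scarce, with 71 and 81 counts, and its interval included 0. Of the 11 ratios, 8 were below 0, but only 6 with library totals or FPKM, where Srsf3 and Srsf5 crossed to the other side. In the paired Tra2 genes, whose products bind GAA-rich exonic enhancers, Tra2b was lower (290 and 222 CPM, -0.39 [-0.44 to -0.33]) and Tra2a slightly higher (134 and 145 CPM, 0.11 [0.03 to 0.18]), so that the TPM of Tra2b over that of Tra2a was 1.9 in mESC and 1.3 in cEpiSC.

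The hnRNP genes were the most abundant group, summing to 7446 TPM in mESC and 6708 TPM in cEpiSC. Of 21 listed, 20 were tested, of which 1 was 2-fold higher, none lower and 19 within 2-fold. All genes at 10 CPM or more had shares of 6.81% higher and 7.96% lower, so these counts are not far from them. Hnrnpa1, whose product binds UAG-containing silencers, led at 1221 and 1285 TPM, with some of its reads shared with similar loci. Hnrnpf (1162 and 864 TPM, shared reads), Hnrnpk (751 and 724 TPM) and Hnrnpl (625 and 562 TPM) followed; their products bind runs of G, runs of C and CA repeats. By CPM, Hnrnpa1 stood at 1154 and 1258 (0.12 [0.10 to 0.15]), Hnrnpa2b1 at 734 and 841 (0.20 [0.16 to 0.23]), and Hnrnpc, which binds runs of U, at 529 and 587 (0.15 [0.11 to 0.19]). Hnrnpk, Hnrnpa3 and Hnrnpab had intervals that included 0. The pseudogene Hnrnpa1l2-ps2 held less than 1 count in either library.

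Among the hnRNPs, 5 of the 20 tested genes were lower with a counting interval wholly beyond 1.5-fold. By the same measure 9 of the 83 splicing regulators were lower, against 12.7% of all tested genes. At 100 CPM or more it was 6 of the 43, against 16.5% of all genes at that level. The number is thus not high for the splicing regulators together. The hnRNPs held 5 of the 9, all at 100 CPM or more. These are 5 of 20 tested hnRNPs, beside 12.7% of all tested genes and 16.5% of genes at 100 CPM or more. The numbers are small, and an excess among hnRNPs was not tested. The 5 included all 3 genes of the U subgroup. Hnrnpu, which encodes the nuclear scaffold attachment factor, had 892 CPM in mESC and 579 CPM in cEpiSC (-0.62 [-0.66 to -0.59], shared reads). Its paralogue Hnrnpul1 had 393 and 243 CPM (-0.70 [-0.75 to -0.64]) and Hnrnpul2 had 238 and 136 CPM (-0.80 [-0.87 to -0.73]), the lowest ratio of all hnRNP genes. The median of the 3 was -0.70, and between -0.74 and -0.62 under the other scalings, units and length centring. The other 2 were Hnrnpm, whose product binds GU-rich sequence (309 and 187 CPM, -0.73 [-0.78 to -0.67]), and Hnrnpa0 (269 and 165 CPM, -0.70 [-0.77 to -0.64]). Hnrnpd, also called Auf1, which binds AU-rich elements and promotes mRNA decay, was close to them at 306 and 204 CPM (-0.58 [-0.64 to -0.53]), whereas its relative Hnrnpdl differed little (201 and 183 CPM, -0.13 [-0.20 to -0.07]).

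The F/H subgroup, whose products share G-run binding, split. Hnrnpf was lower, at 1381 and 1055 CPM (-0.39 [-0.42 to -0.36]). Hnrnph1 was higher, at 120.1 and 165 CPM (0.46 [0.38 to 0.53]), and Hnrnph2 was even, at 66.9 and 64.5 CPM (-0.05 [-0.16 to 0.06]). Hnrnph3 (Entrez 432467, chromosome 10, 63014664 to 63023980 in GRCm38.p6) was the hnRNP gene called higher, with 483 counts in mESC and 1085 in cEpiSC, or 25 and 53.0 CPM (2.12-fold, 1.08 [0.93 to 1.24]). Its reads were partly shared with similar loci, so its error is larger than the interval, and the ratio was 0.97 after centring on transcript length, just under 2-fold.

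Among the polypyrimidine tract binding proteins Ptbp1 and Ptbp3 were lower in cEpiSC and Ptbp2 was higher. Ptbp3 (Entrez 230257, chromosome 4, 59471868 to 59549378), also called Rod1, had 4485 counts in mESC and 1853 in cEpiSC. That is 232 and 90.5 CPM, 2.56-fold lower (-1.36 [-1.43 to -1.28]), and the ratio ran from -1.04 to -1.37 under the other settings. In bulk RNA, fewer cells with a transcript and less of it per cell cannot be told apart. Ptbp1, the repressor of neuronal exons, went from 1112 to 811 CPM (-0.46 [-0.49 to -0.43], shared reads). Ptbp2, its neural paralogue, went from 21.5 to 35.9 CPM (0.74 [0.56 to 0.92]), which is 1.67-fold. Ptbp1 made up 90.1% of the TPM of the 3 genes in mESC and 91.8% in cEpiSC. The order below it tightened: the TPM of Ptbp3 was 5.29 times that of Ptbp2 in mESC and 1.23 times in cEpiSC.

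In the Celf family the abundant member was lower and the rarer ones higher. Celf1, whose product binds GU-rich elements in splicing and mRNA decay, had 313 CPM in mESC and 212 CPM in cEpiSC (-0.56 [-0.62 to -0.51]). Celf4 (Entrez 108013, chromosome 18, 25477620 to 25754520), known for its expression in brain, had 18 counts in mESC and 267 in cEpiSC, or 0.930 and 13.0 CPM. This was the highest ratio of all 83 genes, 14-fold (3.67 [3.12 to 4.59]), at levels of 0.42 and 5.70 TPM. Celf5, a close relative, had 12.1 and 20.8 CPM (0.78 [0.55 to 1.02]), and Celf2 4.08 and 7.18 CPM (0.80 [0.41 to 1.23]). Celf2 passed 2-fold (1.12) after centring on length. Celf6 had 0 and 12 counts, with a lower limit of 1.39 for the log2 ratio, and Celf3 had 0 and 3 counts, no more than the floor of 3 counts per library. Celf1 supplied 94.0% of the family's TPM in mESC and 81.1% in cEpiSC, while the share of Celf4 was 0.39% and 6.66% and that of Celf5 4.76% and 9.80%.

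**Figure D3:**
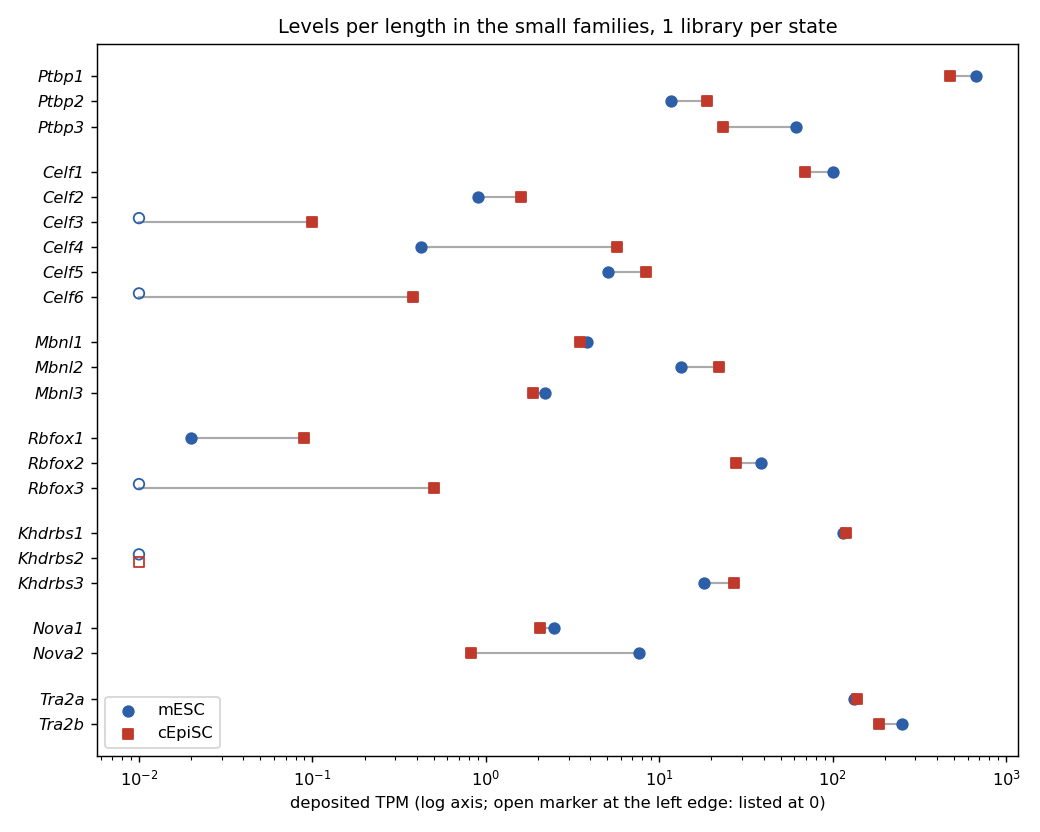
Deposited TPM (log axis) of every gene of the 7 small families in mESC (blue circles) and cEpiSC (red squares), 1 library each, with open markers at the left edge for genes listed at 0. Nova2 and Ptbp3 lie to the left in cEpiSC and Celf4 to the right, while Ptbp1, Celf1, Rbfox2 and Khdrbs1 lead their families in both libraries.

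The Nova pair exchanged its order. Nova2 (Entrez 384569, chromosome 7, 18925888 to 18965319), which encodes a KH-domain protein best known for its control of neuronal exons, had 686 counts in mESC against 80 in cEpiSC. At 35.5 and 3.91 CPM it was 9.07-fold lower, the lowest ratio of the 83 genes (-3.15 [-3.53 to -2.85]). With a pseudocount of 1 the ratio was -2.25 on deposited TPM and -1.80 on FPKM, and it was -2.83 after centring on length. Nova1 was near even at 4.24 and 3.76 CPM (-0.17 [-0.64 to 0.30]). Per length, Nova2 was the more abundant of the pair in mESC, at 7.68 against 2.47 TPM, and the less abundant in cEpiSC, at 0.82 against 2.04 TPM.

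The 250 bases before the annotated start of Nova2 are shown because it is the largest decrease and its upstream window does not run into another transcript of the gene. The sequence is from RefSeq, build GRCm38.p6, plus strand, chr7:18925638-18925887. Below it stand 30 bases of the Rbm24 window, chr13:46418211-46418240, plus strand, from the next most decreased gene. Capitals mark CTTTGA, the core of the motif bound by TCF and LEF factors, the DNA-binding partners of beta-catenin, a protein that GSK3 inhibition stabilises.

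Nova2: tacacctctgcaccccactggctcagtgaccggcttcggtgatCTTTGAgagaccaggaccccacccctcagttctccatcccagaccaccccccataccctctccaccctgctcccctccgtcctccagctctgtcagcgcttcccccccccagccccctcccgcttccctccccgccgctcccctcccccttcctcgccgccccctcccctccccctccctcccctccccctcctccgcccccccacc

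Rbm24: gggtctttgcgaCTTTGAccagtaggagca

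The core begins 207 bases before the annotated start in Nova2 and 77 bases before it in the Rbm24 record used. The Rbm24 stretch lies inside the gene as RefSeq bounds it (46418102 to 46431099), since another transcript starts further upstream. The letters are common: CTTTGA on either strand was found in 13.8% of 32851 such windows of all genes and in 11 of 110 windows of the 76 splicing regulators that matched. Among the other called genes with a window, Hnrnph3 and the first listed window of Rbm47 had no core, while a later Rbm47 window had it. A part of GSK3 inhibition or of TCF and LEF factors in the lower counts of Nova2 and Rbm24 was not tested. TTCNNNGAA, the motif of STAT3, the factor downstream of LIF, was in 9 of the 110 (8.18%) and in 7.02% of all windows. CACGTG, an E-box, was likewise in 9 of the 110, against 6.02% of all windows. The octamer ATGCAAAT was in none, against 1.60% of all. These motifs were searched on both strands, none of them contains another, and the matches are descriptions of sequence. Windows of tested splicing regulators held a median of 18.5 CpG dinucleotides in 250 bases, with quartiles of 11.8 and 25 (68 genes, first listed window), and those of all tested genes a median of 16, with quartiles of 9 and 23. The Nova2 window held 10 and that of Rbm24 12.

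Mbnl2 was the most abundant Mbnl gene per length in both states and was higher in cEpiSC. It had 635 counts in mESC and 1150 in cEpiSC, or 32.8 and 56.2 CPM (1.71-fold, 0.77 [0.64 to 0.92]). Mbnl1 (10.7 and 10.4 CPM, -0.05 [-0.34 to 0.23]) and Mbnl3 (10.6 and 9.43 CPM, -0.17 [-0.46 to 0.12]) had intervals that included 0, and the sign of their ratios turned after centring on length. All 3 were scarce per length. Together they summed to 19.3 TPM in mESC and 27.6 TPM in cEpiSC, of which Mbnl2 supplied 68.9% and 80.5%.

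Rbfox2, which binds UGCAUG beside exons, was the Rbfox gene that reached 1 CPM. It was lower in cEpiSC, at 143 and 101 CPM (1.41-fold, -0.50 [-0.58 to -0.42]), and its TPM was 2.88 times that of Mbnl2 in mESC and 1.24 times in cEpiSC. Rbfox3, the neuronal nuclear antigen NeuN, had 0 and 11 counts, with a lower limit of 1.25 for the log2 ratio, and Rbfox1 had 1 and 5 counts, with an interval from -0.92 to 7.80.

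The Khdrbs genes encode the STAR-domain proteins Sam68 and its relatives, and both tested members had ratios above 0. Khdrbs1, the gene for Sam68, had 235 and 253 CPM (0.11 [0.05 to 0.17]) and supplied 86.5% and 81.6% of the family's TPM. Khdrbs3, for the paralogue SLM2, had 18 and 28.1 CPM (1.56-fold, 0.64 [0.45 to 0.84]). Khdrbs2 had 0 counts in both libraries, where a floor of 3 counts equals 0.155 CPM (mESC) and 0.147 CPM (cEpiSC).

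Of the small families, Celf4 and Nova2, both known from neurons, were called in opposite directions. Neural markers were mixed. Of 8, 6 were tested, 2 were at least 2-fold higher and 2 lower, and by sign 3 ratios lay above 0 and 3 below. Their summed level was 109 CPM in mESC and 58.9 CPM in cEpiSC. Most of it was Tubb3 (69.7 and 25.9 CPM) and Nes (25.9 and 11.9 CPM). Neurod1 had 2 and 165 counts, Pax6 2 and 33, Tubb3 1348 and 531, and Dcx 0 in both. The part of any neural cells in the differences of Celf4 and Nova2 was not tested.

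Of the 10 Rbm genes that work with the spliceosome, none was 2-fold apart. That is near the shares of all genes at 10 CPM or more, 6.81% higher and 7.96% lower. By sign 7 ratios lay below 0 and 3 above, each with an interval that excluded 0. The split was 7 and 3 under every other scaling and unit. Rbm25, which works with the U1 particle in choosing 5′ splice sites, was the lowest at 156 and 102 CPM (-0.61 [-0.69 to -0.53]). Rbm42 (78.6 and 57.0 CPM, -0.46 [-0.58 to -0.35]) and Rbm6 (78.6 and 59.5 CPM, -0.40 [-0.51 to -0.29]) were next. Rbm39, a relative of the polypyrimidine tract receptor U2af2, had 225 and 186 CPM (-0.27 [-0.34 to -0.21]). Rbm17, also called SPF45, was the most abundant of the 10 per length at 216 and 238 TPM, and was a little higher (0.18 [0.12 to 0.25]). Rbm41 (10.5 and 15.5 CPM, 0.56 [0.30 to 0.82]) and Rbm48 (14.6 and 17.4 CPM, 0.26 [0.03 to 0.49], shared reads), both linked to the minor spliceosome, were the other 2 above 0.

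Rbm genes of other steps also stayed within 2-fold, beside 13.6% higher and 9.25% lower among all tested genes. Of 7 genes of the exon junction complex, nuclear decay and m6A methylation, 6 had ratios below 0. Rbm8a, which encodes the exon junction protein Y14, had 240 and 186 CPM (-0.37 [-0.43 to -0.30]), Rbm33 86.6 and 64.6 CPM (-0.42 [-0.53 to -0.32]), and Rbm7, of the nuclear exosome targeting complex, was even (46.2 and 47.6 CPM, 0.04 [-0.09 to 0.18]). The nucleolar genes diverged, with Rbm19 lower (60.4 and 43.2 CPM, -0.48 [-0.61 to -0.35]), Rbm28 even (104 and 102 CPM) and Rbm34 higher (55.5 and 70.6 CPM, 0.35 [0.23 to 0.46]). Rbm3, a cold-inducible RNA chaperone and the most abundant Rbm gene per length (240 and 321 TPM), was higher at 170 and 233 CPM (1.38-fold, 0.46 [0.40 to 0.53]). Its cold-inducible relative Cirbp, outside the symbol rule, had 15.1 and 19.4 CPM (0.36 [0.14 to 0.58]). Rbm14, a paraspeckle component, was lower (159 and 115 CPM, -0.46 [-0.54 to -0.39]), and Rbm43 higher at a low level (6.41 and 10.9 CPM, 0.76 [0.44 to 1.1]).

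All 4 Rbm genes past 2-fold belonged to the 7 grouped by hand as genes of particular tissues or the germ line. That group also holds Rbm38, which was abundant in both libraries. The 4 genes lay below 100 CPM in both libraries, where calls are common. Of 10476 tested genes below that level, 1693 were higher and 990 lower. Of the 40 tested splicing regulators there, 4 were higher and 3 lower. Grouping by tissue and low abundance cannot be told apart here. Rbm24 (Entrez 666794, chromosome 13), a splicing factor of heart and skeletal muscle, had 61 counts in mESC and 7 in cEpiSC, or 3.15 and 0.342 CPM (9.22-fold lower, -2.88 [-4.58 to -2.07]). Rbm20 (Entrez 73713, chromosome 19, 53660989 to 53867083), which controls titin splicing in the heart, had 27 and 106 counts, or 1.4 and 5.18 CPM (3.71-fold higher, 1.82 [1.27 to 2.56]). Both were rare in either state, under 2 TPM, and with a pseudocount of 1 on the deposited TPM or FPKM the ratio of Rbm20 was 0.78 or 0.59 and that of Rbm24 -1.24 or -0.83. Muscle markers were mixed: of 7, 3 were tested, 2 were higher and 1 lower, and their sum was 33.6 and 54.1 CPM. Des had 20.1 and 43.5 CPM, Myh3 46 and 149 counts (shared reads) and Ttn 213 and 44 counts, while the regulators Myod1 and Myog had 1 and 3 and 1 and 12 counts. Their part in these differences was not tested.

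Rbm44 (Entrez 329207, chromosome 1, 91144973 to 91170799), which encodes a protein of germ cell bridges, had 280 counts in mESC and 653 in cEpiSC, or 14.5 and 31.9 CPM (2.21-fold higher, 1.14 [0.94 to 1.35]). With deposited TPM the ratio was 0.996, just under 2-fold. The meiotic gene Rbm46 had 7 and 14 counts, too few to show a difference. Of 5 germ line markers 1 was 2-fold higher (Ddx4, 10.2 and 29.1 CPM) and 1 lower (Dazl, 181 and 43.6 CPM), and their sum was 252 and 149 CPM; the part of these markers was not tested. Rbm47 (Entrez 245945, chromosome 5, 66016549 to 66151954), of endoderm and epithelia, stood at the threshold with 415 and 216 counts, or 21.4 and 10.6 CPM (2.03-fold lower, -1.02 [-1.27 to -0.78]). It was within 2-fold with library totals (-0.94), TPM (-0.90), FPKM (-0.72) or length centring (-0.87). Primitive endoderm markers summed to 16.8 and 15.6 CPM; of 6, 4 were tested, 1 was lower and none higher, with Foxa2 at 1 and 0 counts. Rbm38, a p53 target, was abundant and even (138 and 138 CPM, 0.01 [-0.07 to 0.08]), and Rbm11 had 5 and 9 counts.

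The length that the deposited counts and FPKM imply for a gene gave a second readout. Where a gene's length is averaged over its isoforms by their estimated abundance, as RSEM does, a shift between long and short isoforms moves it; whether these FPKM were made in that way is not given in the sources used here. Of 59 splicing regulators at 10 FPKM or more in both libraries, none had implied lengths 1.2-fold apart, and neither did most genes (0.152% of 5912). The implied length was within 1% between the libraries for 50 of the 59 (84.7%) and for 81.4% of all genes compared. A threshold of 4%, chosen after these values were seen, was passed by 2 of the 59, against 4.53% of all genes. Celf1 went from 5600 bases in mESC to 5299 in cEpiSC (a change of -5.37%) and Rbfox2 from 6713 to 6377 bases (-5.0%). The next were Hnrnpul2 (4152 and 4258 bases) and Rbm6 (3210 and 3140 bases), while Ptbp3, despite its lower count, kept 6775 and 6782 bases. Below 10 FPKM and so outside this comparison, Rbm12b1 showed 3853 and 4859 bases, with reads shared with similar loci. No error can be put on these lengths with 1 library per state.

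**Figure D4:**
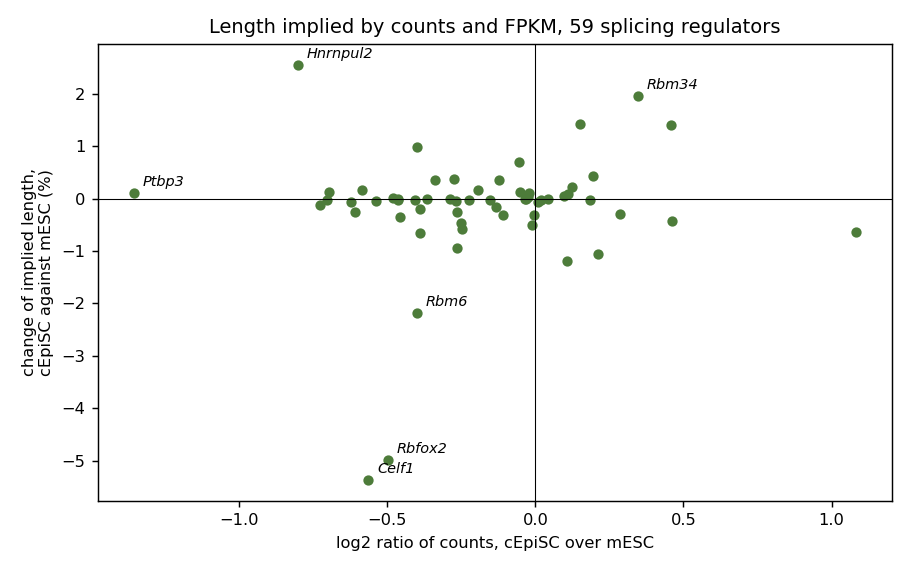
Change of implied transcript length in cEpiSC against mESC in percent (vertical axis) by log2 ratio of counts (horizontal axis) for 59 splicing regulators at 10 FPKM or more in both libraries; each point is 1 gene. Celf1 and Rbfox2 lie near -5%, and 50 genes lie within 1% of 0.

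The machinery around these regulators stayed within 2-fold. Of 68 core spliceosome genes none was 2-fold apart, against 13.6% higher and 9.25% lower among all tested genes and 3.72% and 8.49% at 100 CPM or more, and the median ratio was -0.03, with 36 below 0 and 32 above. The most abundant per length, the small nuclear ribonucleoprotein genes Snrpg (696 and 995 TPM) and Snrpd2 (578 and 752 TPM), had ratios of 0.56 (0.48 to 0.64) and 0.42 (0.35 to 0.50). Counting intervals were wholly beyond 1.5-fold on the lower side for 4 genes, named after their values were seen, and on the higher side for none. They were Cdc5l (328 and 166 CPM, -0.98 [-1.04 to -0.92]), Sf3a2 (-0.77), Sart1 (-0.73) and Snrnp200 (-0.67). Of the 10 genes for kinases and the import receptor of SR proteins, 9 were tested and none was 2-fold apart, at a median of 0.02. The import receptor gene Tnpo3 had 292 and 362 CPM (0.31 [0.26 to 0.36]) and the kinase gene Srpk1 126 and 134 CPM (0.10 [0.02 to 0.18]). The lowest of the 9 was the kinase gene Dyrk1a (78.9 and 44.3 CPM, -0.83 [-0.95 to -0.71]), also named after its value was seen. None of 14 genes of nonsense-mediated decay and the exon junction was 2-fold apart, at a median of -0.21, with 9 below 0. Among all genes at 10 CPM or more 6.81% were higher and 7.96% lower. In lists of 9 and 14 genes, having none called is near those shares. The most abundant, Eif4a3 (227 and 232 TPM, shared reads) and Magoh (198 and 231 TPM), had ratios of 0.08 and 0.27. Smg1, the kinase that phosphorylates Upf1, was just within 2-fold (162 and 81.5 CPM, -0.99 [-1.08 to -0.91]) and Casc3 was at 109.8 and 63.3 CPM (-0.79 [-0.90 to -0.69]), both named after their values were seen.

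Of 48 tested splicing regulators outside the symbol rule, 4 were higher and 5 lower, at a median of -0.17; the shares among all tested genes were 13.6% and 9.25%. Esrp1, the epithelial splicing regulator, was 10.6-fold higher (2.12 and 22.4 CPM, 3.34 [2.94 to 3.90]), and its paralogue Esrp2 was lower (16.6 and 6.69 CPM, -1.30 [-1.61 to -1.02]). Qk, the gene for quaking, was 3.12-fold lower (301 and 96.3 CPM, -1.64 [-1.72 to -1.57]). Srrm4, the regulator of neuronal microexons, was lower as Nova2 was (65 and 18 counts, -1.82 [-2.77 to -1.16]), while Elavl3, a neuronal Hu gene, was higher (12 and 86 counts, 2.58 [1.88 to 3.77]). The other genes past 2-fold were Pcbp3 (16.2 and 39.5 CPM) and Elavl4 (10 and 45 counts), both higher, and Msi1 (83.9 and 30.6 CPM) and Srrm2 (593 and 228 CPM), both lower; these 4 and Esrp2 were named after their values were seen.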

How the data were processed

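One mESC and one cEpiSC library were analysed, 2 in all. Per the submitters' processing notes, HISAT2, Bowtie2, RSEM 1.3.1, DESeq2 1.34.0 and the build GRCm38.p6 were used; which tool served which step, with what annotation and strand setting, is not given in the sources used here, so reads of overlapping or antisense genes may be mixed. Per the file headers, the authors deposited read counts, TPM and FPKM per gene. The deposited counts are estimated counts: 11.3% (mESC) and 11.9% (cEpiSC) of genes hold a value over 0.005 from a whole number, as do 15 of the 91 members in either library, written here as shared reads. No column of another sample was present (0).

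Estimated counts were rounded and all genes scaled together by TMM (edgeR 4.0.16, R 4.3.3; factors 0.975 and 1.03). Log2 ratios carry a prior count of 2; folds and intervals (exact conditional, Clopper-Pearson, 95%) do not. Genes at 1 CPM in at least 1 library were tested, that is, ranked by size, with calls at 2-fold; 1 library per state leaves no residual degrees of freedom. Reads were amplified by PCR with no stated molecular identifiers, so the intervals, and floors of 3 counts per library, cover only counting error. Implied length is the deposited count over FPKM and the library total. Coordinates and sequences are RefSeq's for GRCm38.p6, joined by Entrez identifier (91 of 91 members with coordinates, 76 with a promoter window). Intervals were checked on simulated Poisson counts, which hold counting error only. That check cannot speak to variation between cultures, PCR or shared reads. DESeq2 1.42.0 gave alternative size factors; other computation used Python 3.11.15.

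Named genes were members past 2-fold, all members of the small families, in the Srsf, Hnrnp and Rbm families the most abundant, the extremes and those beyond 1.5-fold, and up to 4 genes of each other list; a few further members were added to complete the groups. Members and lists were chosen with earlier results of these data known. Srsf, Hnrnp and Rbm members were assigned to roles by hand from textbook knowledge.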

Additional observations from a re-analysis of the deposited data

How the results depend on the processing

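Repeat analyses used DESeq2 size factors, library totals, no filter on low counts, a 5 CPM filter, prior counts of 0.5 and 5, TPM and FPKM (each plus a pseudocount of 1), centring on deciles of length, and removal of members with shared reads. Of 744 values of single members, 634 stayed within their counting interval, 110 moved outside it and 0 of the called values changed sign; 15 uncalled members turned sign under another scaling, unit or length setting, among them Rbm27 (-0.27, and 0.05 after centring on length). The 4 members called higher became 8 without the filter on low counts, which adds Celf3, Celf6, Rbfox1 and Rbfox3 at 0 or 1 count in mESC, and 2 with TPM, which loses Rbm20 and Rbm44; the pseudocount of 1 shrinks ratios of low genes by construction. The 4 called lower became 2 with FPKM, without Rbm24 and Rbm47. The median of -0.15 was -0.055 with FPKM and -0.063 after centring on length, and its other values ran from -0.17 to -0.08. Members with implied lengths apart were 0 at 1.2-fold, 0 at 1.1-fold, 0 with a minimum of 5 or 20 FPKM, and 2 at 4%, a threshold which was added after seeing the data. At this depth a difference was not detectable for members with few counts, such as Rbm11, Rbm46, Rbfox1 and Celf3. No paired analysis was possible because each state has 1 library.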
